A study of Mus musculus with 50 samples.

Results

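The macrophages of the mouse spleen are followed here through 10 genes that mark them. The genes were taken by name, under current or older symbols, from the probes of the deposited value table, and all 10 were found among 15312 named genes measured, through 12 probes. Marco, Siglec1, Cd209b, Timd4 and Cd5l stand for macrophages of the marginal zone, and Spic, Vcam1, Cd163, Mrc1 and Adgre1 (older symbol Emr1) for those of the red pulp. Spleens of female mice were measured on 50 two-colour arrays, 1 per sample, with spleen RNA in Cy5 and a pooled mouse reference RNA in Cy3. BALB/c wild-type mice were untreated (n = 6 arrays) or had received 400 µg of an equimolar mixture of the CpG oligodeoxynucleotides (ODN) 1555 and 1466 into the peritoneum, and their spleens were taken after 0.5, 1, 3, 9, 24 or 72 h (n = 4 arrays each). A further group of 4 BALB/c arrays came from mice given the control ODN 1612 and 1471 for 3 h. On the C57BL/6 background, control animals and TNF knockouts (TNF-KO, without tumour necrosis factor) were left untreated or given CpG for 3 h (n = 4 arrays each), and the sample labels name a dose and the ODN for BALB/c only. Ages were not given in the sources used here, nor was the allele behind the TNF-KO label, and all C57BL/6 CpG arrays were grouped by their titles because a second label field calls them untreated.

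Blood entering the spleen opens into the marginal zone, a border around the white pulp where macrophages capture particles and microbes, and then filters through the red pulp, where other macrophages take up old erythrocytes and recycle their iron. The marginal zone holds Marco-positive cells, which carry the C-type lectin Cd209b (SIGN-R1), and an inner ring of metallophilic cells, which carry the sialic acid receptor Siglec1 (CD169). Red pulp macrophages depend on the transcription factor Spic and carry Adgre1 and Vcam1. CpG ODN engage TLR9, a Toll-like receptor that senses DNA inside endosomes. In whole spleen RNA, fewer cells of a type and less RNA per cell cannot be told apart.

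The bases upstream of 3 genes are shown because these genes carried most of the changes described below: Cd5l and Mrc1 rose together between 9 and 24 h, and Spic was higher at every time from 1 h on. Each run is the 250 bases before the annotated start in RefSeq, assembly GRCm38.p6, read 5′ to 3′ on the strand of the gene. Spic lies on the minus strand with its run at chr10:88683024-88683273, Cd5l on the plus strand at chr3:87357631-87357880 and Mrc1 on the plus strand at chr2:14229164-14229413. Capitals mark matches, on either strand, to the PU box GAGGAA, the core motif of PU.1 and related Ets factors of macrophages, a family that includes Spic.
Spic: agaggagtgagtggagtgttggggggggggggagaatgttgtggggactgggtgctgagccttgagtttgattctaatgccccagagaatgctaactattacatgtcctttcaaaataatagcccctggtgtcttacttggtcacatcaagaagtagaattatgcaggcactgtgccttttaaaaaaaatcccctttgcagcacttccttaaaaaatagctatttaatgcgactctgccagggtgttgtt
Cd5l: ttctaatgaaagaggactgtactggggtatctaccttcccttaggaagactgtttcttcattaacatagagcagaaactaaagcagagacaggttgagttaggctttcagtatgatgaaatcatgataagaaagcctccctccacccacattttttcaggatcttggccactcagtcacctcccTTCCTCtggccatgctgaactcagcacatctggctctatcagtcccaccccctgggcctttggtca
Mrc1: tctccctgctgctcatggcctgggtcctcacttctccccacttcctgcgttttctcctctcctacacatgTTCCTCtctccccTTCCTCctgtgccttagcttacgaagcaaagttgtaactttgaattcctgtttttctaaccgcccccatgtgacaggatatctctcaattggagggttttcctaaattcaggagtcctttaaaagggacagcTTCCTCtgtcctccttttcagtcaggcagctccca
Mrc1 had 3 matches, Cd5l had 1 and Spic had none. Of 32851 mouse promoter windows of the same length, 23.3% held a match. A match is a description of the letters, and binding was not measured here. RefSeq entries were at hand for 7 of the 10 genes and not for Siglec1, Vcam1 and Adgre1. Among the genes with an entry that are not shown, Marco had 1 match and Cd209b, Timd4 and Cd163 had none.

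Each value below is a log2 ratio of spleen over reference, centred on the median of its array, so a level of 1 means a signal ratio of 2. Such ratios depend on how much of a transcript the reference pool holds, which itself includes macrophages, and levels of different genes cannot be set against each other. All group means of the 10 genes lay above the reference, with Cd163 nearest to it at 0.12 to 0.72. Arrays gave 27619 to 30590 measured probes, and within groups the median correlation of an array with its companions was 0.85 to 0.928. The Tnf probe read -0.61 to 0.43 on the 8 TNF-KO arrays. It read 3.16 to 4.59 on the C57BL/6 control CpG arrays, against 0.58 to 0.78 on the untreated control arrays. The genotypes, and both control groups, thus lay apart as titled. Within TNF-KO the probe could not check the titles, since untreated arrays (-0.61 to 0.09) and CpG arrays (-0.45 to 0.43) overlapped. Markers of neighbouring pancreas spanned 0.19 to 6.25 over the arrays as a mean of 8 genes, and their part in the results was not tested. Array numbers in the titles fall into runs, which largely coincide with groups: 5 of the 6 untreated BALB/c arrays lie in the first run, with the 0.5 h arrays and 2 of the 1 h arrays, whereas the 9 h arrays and 3 of the 24 h arrays share the third run and the 72 h and control ODN arrays the fourth. The runs were inferred from gaps in these numbers, and no scan or hybridisation date was given in the sources used here. Where run and group coincide they cannot be told apart.

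Differences were tested with limma on all genes of a fit, and a gene was called at a Benjamini-Hochberg adjusted p under 0.05 over all of them. In BALB/c spleen, no member was called at 0.5 h, when 0.256% of 15264 genes were called. At 1 h 3 of the 10 were called, all higher, against 3.3% of all genes called in either direction, and at 3 h 1 was called, against 9.96%. At 9 h 1 was higher and 1 lower, against 6.96% called, at 24 h 3 were higher against 8.45%, and at 72 h 4 were higher against 10.6%. The median log2 difference over the 10 genes was 0.95 at 1 h, -0.04 at 9 h and 0.66 at 24 h, beside 0.05, -0.02 and 0.02 over all genes. These comparisons share the 6 untreated arrays. Timd4 and Cd163 were called in none of the 17 comparisons made.

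Cd5l, a secreted scavenger receptor cysteine-rich protein of tissue macrophages that protects them from apoptosis and is a target of liver X receptors, showed the largest rise of the 10 genes. Its log2 ratio in untreated BALB/c spleen was 2.41, 3.37, 3.10, 3.02, 1.13 and 2.54, with a mean of 2.59. At 24 h the 4 arrays read 5.21, 5.80, 6.07 and 5.23, and at 72 h they read 5.33, 5.54, 6.24 and 4.24. All 8 late arrays lay above all untreated arrays. The difference from untreated was 2.98 ± 0.44 (SE, adjusted p = 1.6e-05), or 7.90-fold, at 24 h and 2.74 ± 0.44 (adjusted p = 0.00011), or 6.69-fold, at 72 h. Earlier groups overlapped the untreated arrays: means were 3.36 at 0.5 h, 3.02 at 1 h, 2.33 at 3 h over 3 arrays with a value, and 3.32 at 9 h, and no call was made. Within the run that holds both times, the 3 arrays of 24 h averaged 5.70 and the 4 of 9 h 3.32. With array run as a block the 24 h difference was 3.78 and lost its call (adjusted p = 0.0796).

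Cd209b, the lectin SIGN-R1 that binds bacterial and viral sugars on marginal zone macrophages, rose at 1 h. Its 1 h arrays read 5.46, 5.18, 4.67 and 4.63, above the highest untreated array at 4.47. The untreated arrays read 4.20, 4.47, 4.07, 4.14, 0.97 and 3.25, so that 2 of the 6, replicates 5 and 6, lay well under the others. The difference of 1.47 ± 0.39 (SE, adjusted p = 0.0239) became 0.77 (adjusted p = 0.0845) without those 2 arrays, and 1.42 (adjusted p = 0.0569) without replicate 6 alone. It also lost its call without 1 h replicate 1 (1.31, adjusted p = 0.121) or replicate 2 (1.41, adjusted p = 0.0989), with only these groups in the fit (1.47, adjusted p = 0.158) and with all arrays scaled to the same spread (0.77, adjusted p = 0.491). Within runs the 1 h difference was 1.99 in the first (2 arrays against 5) and 0.19 in the second (2 against 1). From 3 h on Cd209b means lay between 3.46 and 3.68, close to the untreated mean of 3.52. Without replicates 5 and 6 the 9 h difference was -0.76 (adjusted p = 0.0429) in place of -0.06.

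Siglec1, the sialoadhesin of metallophilic macrophages and an interferon-responsive gene, read 3.73 to 4.37 in untreated BALB/c spleen and 5.25, 5.31, 6.22 and 3.74 at 72 h. All but the last of these 72 h arrays exceeded every untreated array. The 72 h difference was 1.14 ± 0.31 (SE, adjusted p = 0.018), and without replicate 3 it was 0.77 (adjusted p = 0.142). It also missed the threshold without 72 h replicate 1 (adjusted p = 0.0522) or 2 (0.0627) and without untreated replicates 5 and 6 together (1.03, adjusted p = 0.0765). At 1 h all 4 arrays, from 4.37 to 5.61, lay above the untreated ones, with a difference of 0.99 ± 0.31 that did not pass (adjusted p = 0.075). It was 1.52 within the first run and 0.15 within the second, 0.27 with arrays scaled to the same spread, and was called without 1 h replicate 4 (1.19, adjusted p = 0.0374). At 9 and 24 h the differences were 0.70 and 0.85, with adjusted p-values of 0.21 and 0.0831, and that of 24 h was called without replicate 4 (1.07, adjusted p = 0.029). The 3 h mean of 4.21 was 0.22 above the untreated mean.

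Marco, a class A scavenger receptor of marginal zone macrophages, was not called in BALB/c spleen. Untreated arrays read 4.18 to 5.34, and group means after CpG ranged from 4.89 at 72 h to 5.68 at 1 h. At 3 h the difference of 0.97 ± 0.43 (adjusted p = 0.184) was called with arrays scaled to the same spread (1.21, adjusted p = 0.0419). The 1 h arrays fell apart by run: replicates 1 and 2, in the first run, read 6.91 and 6.70, and replicates 3 and 4, in the second, 4.58 and 4.55. The difference from untreated arrays of the same run was 2.23 in the first and -0.52 in the second. Timd4, a receptor for phosphatidylserine on dying cells, showed the same division, with 4.60 and 5.05 against 3.26 and 3.01 at 1 h, or 1.79 and -0.87 within runs. Its means of 2.41 at 9 h and 2.59 at 24 h were the lowest of the 12 groups, with differences from untreated spleen of -0.79 ± 0.44 and -0.61 ± 0.44 that did not pass (adjusted p = 0.361 and 0.422).

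**Figure D1:**
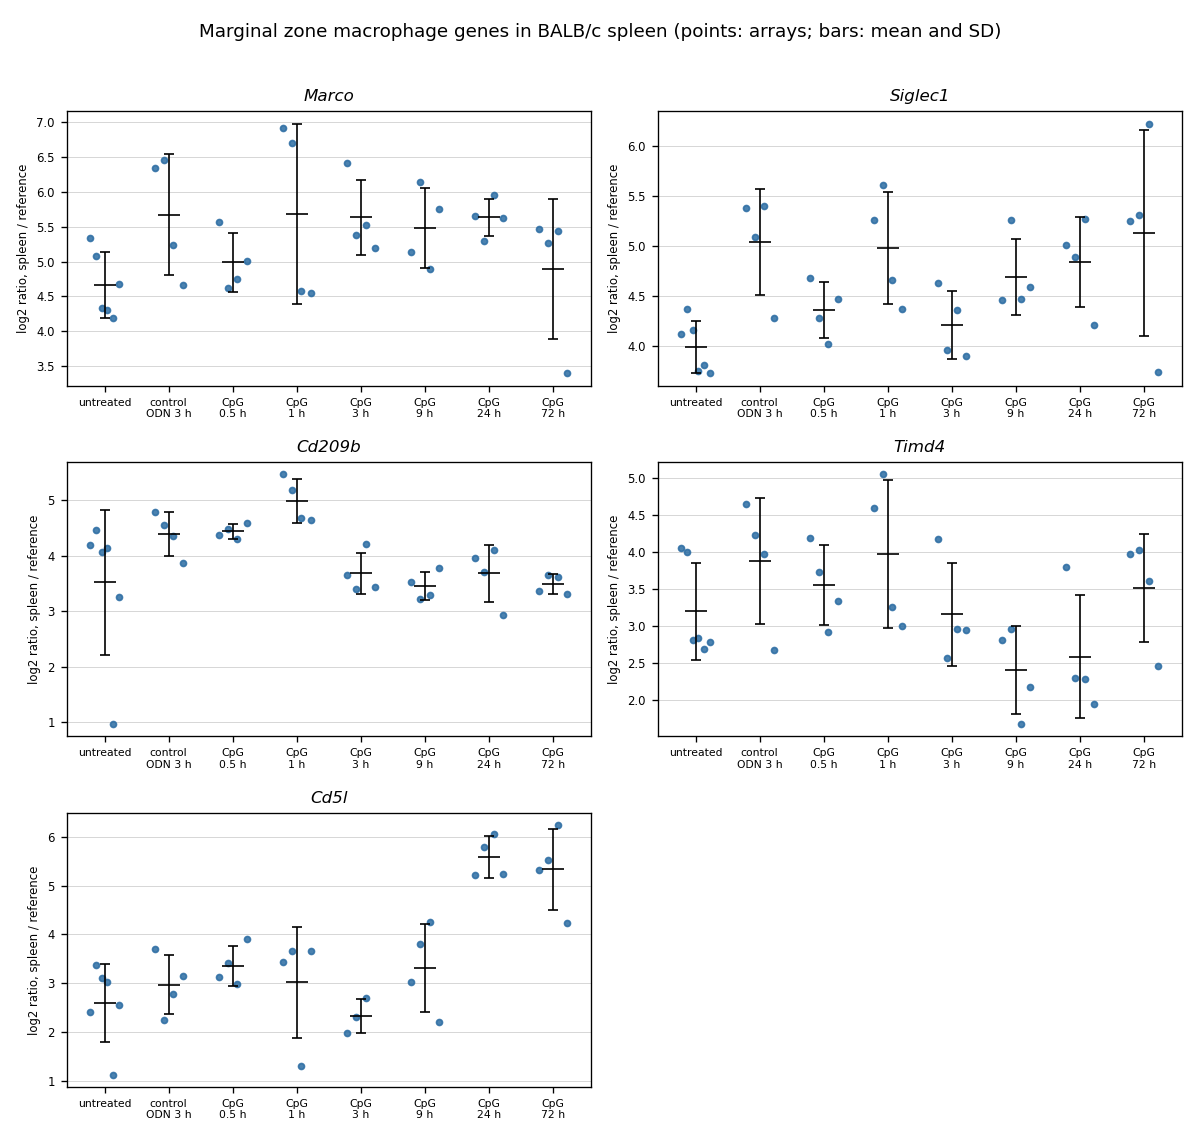
Log2 ratios of spleen over reference (y axis) of Marco, Siglec1, Cd209b, Timd4 and Cd5l in the 8 BALB/c groups (x axis); points are arrays, horizontal bars means and whiskers SD. The Cd5l arrays of 24 and 72 h lie at 4.24 to 6.24, above the untreated arrays at 1.13 to 3.37, and the low untreated Cd209b point at 0.97 is replicate 5.

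Spic, the Ets-family factor needed for red pulp macrophages and induced by heme, was the member called at most times. Untreated BALB/c arrays read 5.13, 5.03, 4.28, 4.42, 4.02 and 4.54. The 1 h arrays read 6.14, 6.03, 5.68 and 5.80, the 3 h arrays 5.78, 5.45, 5.62 and 5.49, and the 9 h arrays 6.07, 5.58, 5.56 and 5.68. All 12 of these arrays lay above all 6 untreated ones, as did the 24 h arrays at 5.39 to 6.13. At 72 h replicate 4, at 4.89, fell inside the untreated range and the other 3 arrays did not. Differences from untreated were 1.34 ± 0.24 at 1 h (SE, adjusted p = 0.00039), 1.01 ± 0.24 at 3 h (adjusted p = 0.00321), 1.15 ± 0.24 at 9 h (adjusted p = 0.00118), 1.18 ± 0.24 at 24 h (adjusted p = 0.00112) and 0.98 ± 0.24 at 72 h (adjusted p = 0.00818), or 1.97- to 2.54-fold. At 0.5 h the arrays split into 6.05 and 5.93 against 4.91 and 4.70, with a difference of 0.83 that did not pass (adjusted p = 0.28). After control ODN the arrays read 5.05 to 5.62, and the CpG and control ODN groups of 3 h differed by 0.28 ± 0.26 (adjusted p = 0.501, 95% interval -0.25 to 0.81). With all arrays scaled to the same spread that difference was 1.14 and was called (adjusted p = 0.0145). With run as a block the calls of 3 h (0.93, adjusted p = 0.224), 9 h (1.04, adjusted p = 0.537) and 24 h (1.02, adjusted p = 0.397) were lost at differences of nearly the same size. Scaling all arrays to the same spread ended the calls of 1 h (0.54, adjusted p = 0.495) and 24 h (0.86, adjusted p = 0.0686), and leaving out untreated replicates 5 and 6 that of 72 h (0.83, adjusted p = 0.0516).

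Mrc1, the mannose receptor that clears glycoproteins from blood, moved in both directions. The untreated arrays read 4.91, 5.05, 4.62, 5.13, 2.75 and 3.70, with replicates 5 and 6 low as for Cd209b. At 1 h the arrays read 6.53, 5.97, 5.62 and 5.75, above every untreated array, and the difference was 1.61 ± 0.36 (SE, adjusted p = 0.00622), or 3.05-fold. Without the 2 low untreated arrays it was 1.04 (adjusted p = 0.0845), and with all arrays scaled to the same spread 0.78 (adjusted p = 0.383). Within the first and second runs it was 2.03 and 0.63. At 9 h the arrays read 1.93, 1.27, 2.18 and 2.75, the lowest of all groups, and 3 of the 4 lay below every untreated array while the fourth reached the level of untreated replicate 5. The 9 h difference was -2.33 ± 0.36 (adjusted p = 2.3e-05), a level 5.01-fold lower, and -2.14 (adjusted p = 0.308) with run as a block. By 24 h Mrc1 was back at 4.36 to 5.58 on the 3 arrays with a value. The gap between the 9 h mean of 2.03 and the next group, untreated at 4.36, exceeded the SD of both, whereas the groups from there up to untreated TNF-KO spleen at 5.66 did not differ from their neighbours beyond their SD.

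Vcam1 is an adhesion molecule of red pulp macrophages, endothelium and stroma. Its mean lay above that of untreated spleen at 0.5 and 1 h (3.74 and 3.84) and below it at 9 h, without a call. After control ODN the mean was 3.77. Its arrays read 2.42 to 3.29 without treatment, 3.46 to 3.86 at 0.5 h and 3.36 to 4.03 at 1 h, and neither early group overlapped the untreated one. Those differences, 0.80 ± 0.26 and 0.90 ± 0.26, did not pass (adjusted p = 0.458 and 0.0544), and the latter was called without 1 h replicate 1 (1.06, adjusted p = 0.0401) or without untreated replicate 1 or 4 (0.97 and 0.95, adjusted p = 0.0493 and 0.048). At 9 h the arrays were spread from 1.20 to 3.33, with a mean of 2.20 and a difference of -0.74 ± 0.26 (SE, adjusted p = 0.0955). Replicate 4 was the high array there, and without it the difference was -1.11 (adjusted p = 0.00268). Of 12 endothelial genes 1, Tek, was lower at 9 h (-1.0 ± 0.28, adjusted p = 0.0225) and none was called higher, and the mean over 10 of them spanned 1.24 to 1.56 at 9 h and 1.23 to 1.71 without treatment. The part of endothelium in the Vcam1 and Mrc1 values was not tested.

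Adgre1, an adhesion G protein-coupled receptor long used as a surface marker of mouse macrophages, was called higher at 24 and 72 h. A further Adgre1 probe gave 0.12 at 24 h (adjusted p = 0.929), and the values here are of the probe used. Earlier differences were 0.39 at 0.5 h and 0.43 at 1 h, and 0.44 after control ODN. None of these passed (adjusted p = 0.51, 0.203 and 0.146), although the 1 h arrays, at 2.70 to 2.99, lay above the untreated ones. Untreated arrays read 2.20 to 2.60 and the 24 h arrays 3.29, 3.32, 3.58 and 2.85, all higher. The difference was 0.82 ± 0.18 (SE, adjusted p = 0.00287), or 1.76-fold, at 24 h and 0.54 ± 0.18 (adjusted p = 0.0482) at 72 h, where the call was lost in 12 of 20 alternative settings, including 8 that left out a single array each (untreated replicates 2 to 6 and 72 h replicates 1 to 3, adjusted p = 0.0577 to 0.173). With run as a block the 24 h difference was 0.85 (adjusted p = 0.331). Cd163, the scavenger receptor for haptoglobin-haemoglobin complexes, stayed between -0.38 and 1.08 on all arrays. Its 1 h mean of 0.12 was its lowest, 0.61 ± 0.19 below untreated spleen, and did not pass (adjusted p = 0.0743). Without 1 h replicate 4 the difference was -0.81 (adjusted p = 0.0106).

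**Figure D2:**
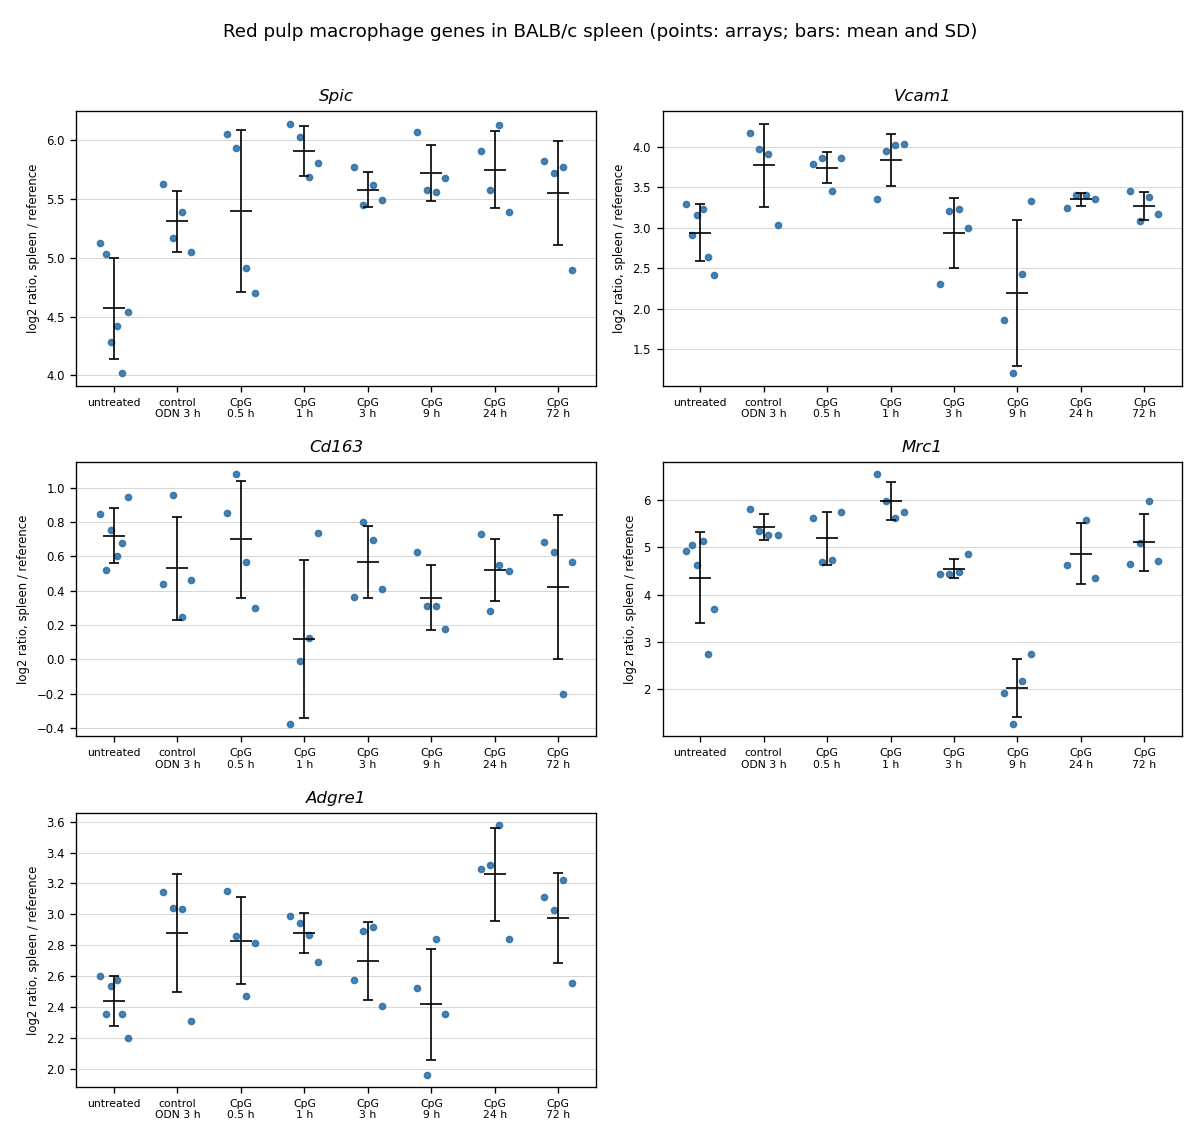
Log2 ratios of spleen over reference (y axis) of Spic, Vcam1, Cd163, Mrc1 and Adgre1 in the 8 BALB/c groups (x axis); points are arrays, horizontal bars means and whiskers SD. Mrc1 at 9 h, from 1.27 to 2.75, lies under all arrays of the other CpG times, and the 12 Spic arrays of 1, 3 and 9 h lie above the untreated ones.

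The change between 9 and 24 h can be read with most arrays in the same run. Against 6.93% of all genes called, 4 of the 10 members were called, all higher at 24 h. Mrc1 rose by 2.82 ± 0.43 (SE, adjusted p = 8.7e-05), or 7.07-fold, and Cd5l by 2.25 ± 0.48 (adjusted p = 0.00455), or 4.76-fold. Both kept their call under all 16 alternative settings that gave a value. Vcam1 rose by 1.15 ± 0.29 (adjusted p = 0.0145) and Adgre1 by 0.84 ± 0.20 (adjusted p = 0.00931). Within the shared run the 4 differences were 2.94, 2.37, 1.18 and 0.82, that of Mrc1 over 2 arrays of 24 h with a value. Vcam1 lost its call without 9 h replicate 1 (1.03, adjusted p = 0.0539) or 2 (0.81, adjusted p = 0.0694) or 24 h replicate 3 (1.13, adjusted p = 0.0547), and Adgre1 without 24 h replicate 3 (0.73, adjusted p = 0.0623). With only these groups in the fit, Vcam1 (adjusted p = 0.127) and Adgre1 (adjusted p = 0.105) did not pass. The Adgre1 difference was 0.07 (adjusted p = 0.931) with the mean of its probes and -0.70 (adjusted p = 0.561) on its other probe. Spic, Marco, Siglec1, Cd209b, Timd4 and Cd163 differed by 0.03 to 0.22 between these times and were not called. No member was called between 24 and 72 h, when 3.33% of all genes were.

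**Figure D3:**
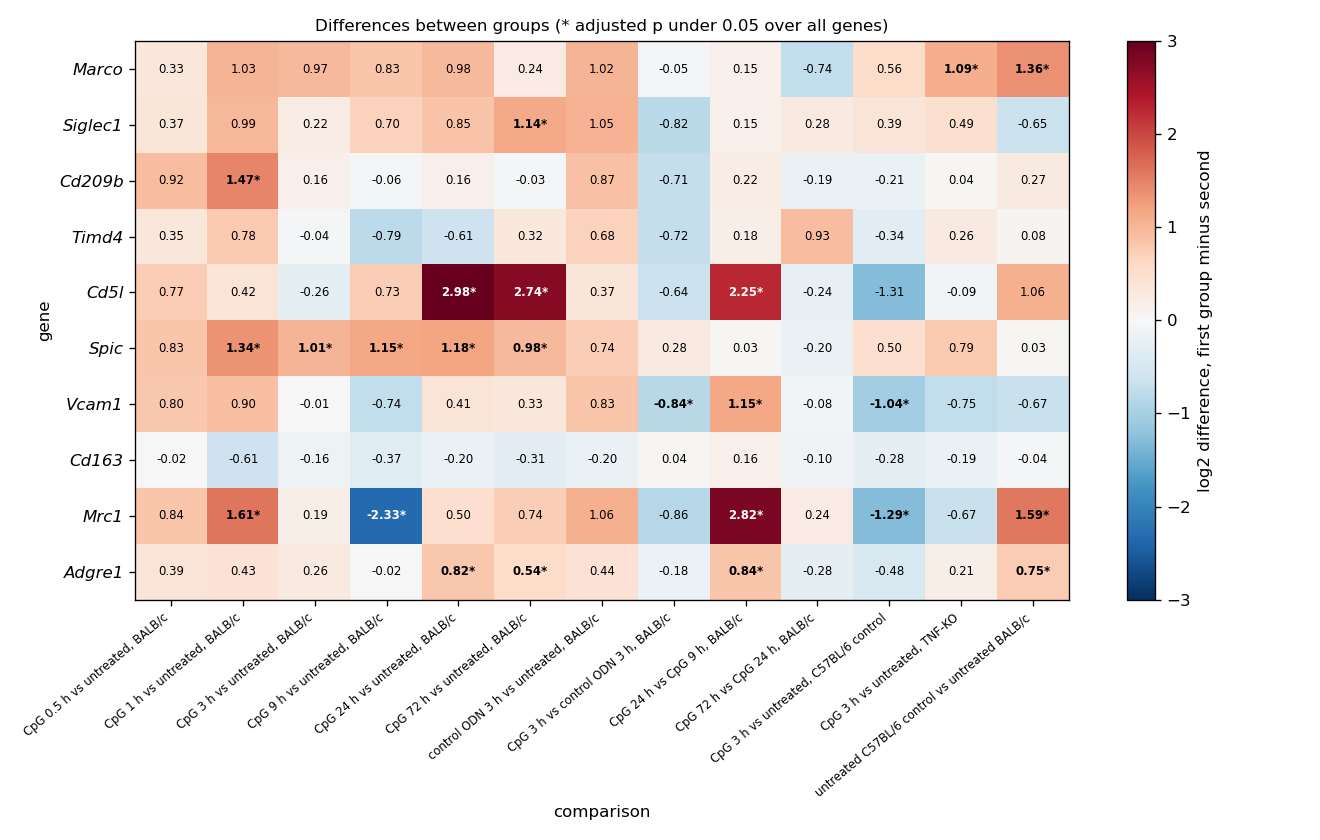
Log2 differences between groups, first named minus second (colour and number), for the 10 genes (rows) in 13 comparisons (columns); an asterisk marks an adjusted p under 0.05 over all genes of the fit. Cd5l at 24 and 72 h and Mrc1 at 9 h and between 9 and 24 h hold the largest values, and Spic is called at 5 of 6 times.

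Control ODN served as the comparison for CpG ODN at 3 h. No member was called between control ODN and untreated spleen, when 1.42% of 15263 genes were. Of the 10 means 9 were higher after control ODN, by 0.37 to 1.06. The median log2 difference was 0.78 over the 10 genes and 0.09 over all genes. Mrc1 arrays read 5.25 to 5.81 after control ODN, above every untreated array, with a difference of 1.06 ± 0.36 (SE, adjusted p = 0.097). With all arrays scaled to the same spread the differences of Mrc1, Marco, Siglec1, Vcam1, Spic and Adgre1 were 0.09 to 0.45. Without control ODN replicate 4, which was the lowest array of the group for Marco, Siglec1, Cd209b, Timd4, Spic, Vcam1 and Adgre1, 2127 genes in all were called, against 216 with it, and 5 members were among them: Siglec1 (1.30, adjusted p = 0.011), Vcam1 (1.08, adjusted p = 0.012), Adgre1 (0.63, adjusted p = 0.0209), Spic (0.82, adjusted p = 0.0341) and Marco (1.36, adjusted p = 0.0441). Between CpG and control ODN at 3 h, when 18.3% of all genes were called, Vcam1 was the member called, at -0.84 ± 0.29 (adjusted p = 0.0414) with overlapping arrays of 2.30 to 3.23 against 3.03 to 4.17. That call was lost on leaving out any of 5 of the 8 arrays, with differences from -0.86 to -0.63 and adjusted p-values from 0.0715 to 0.165. Mrc1 arrays of the CpG group, 4.42 to 4.86, all lay below those of the control ODN group, and the difference of -0.86 ± 0.40 did not pass (adjusted p = 0.128).

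In C57BL/6 control spleen, 2 members were called 3 h after CpG, both lower, against 7.7% of 14951 genes called. Mrc1 read 6.19, 5.92, 5.76 and 5.90 untreated and 4.76, 3.72, 4.74 and 5.42 after CpG, without overlap. The difference was -1.29 ± 0.25 (SE, adjusted p = 0.00278), a level 2.44-fold lower, and -0.88 (adjusted p = 0.0824) with all arrays scaled to the same spread. Under that scaling 3 members were called, Vcam1 still lower (-0.89) and Marco (1.03, adjusted p = 0.00487) and Spic (0.98, adjusted p = 0.0291) higher. The share of 7.7% belongs to the unscaled fit and cannot be set beside these 3 calls. The unscaled Mrc1 difference was -2.19, -1.02 and -1.16 within the 3 runs that hold an array of each group. Vcam1 read 2.56, 2.39, 1.88 and 2.26 untreated and 0.83, 0.80, 1.37 and 1.95 after CpG, where the last array overlapped the untreated ones. Its difference of -1.04 ± 0.26 (adjusted p = 0.0168) lost the call without CpG replicate 1 (-0.90, adjusted p = 0.0622), CpG replicate 2 (-0.89, adjusted p = 0.0671) or untreated replicate 1 (-0.94, adjusted p = 0.0577). Cd5l fell short of the threshold at -1.31 ± 0.40 (adjusted p = 0.0576), with 1.10 to 3.29 after CpG against 3.48 to 3.86 on 3 untreated arrays. Without CpG replicate 4 it was called at -1.63 (adjusted p = 0.0138).

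In TNF-KO spleen, Marco was the member called, higher after CpG, against 3.77% of all genes called. It read 5.74, 5.55, 5.81 and 5.48 untreated and 6.89, 6.83, 6.89 and 6.32 after CpG, without overlap. The difference was 1.09 ± 0.21 (SE, adjusted p = 0.0039), or 2.13-fold, was 1.05 and 0.84 within the 2 runs that hold both groups, and was called under all 17 alternative settings that gave a value. In control mice Marco differed by 0.56 ± 0.21 (adjusted p = 0.118), and it was called there without untreated replicate 2 (0.75, adjusted p = 0.0342), with array weights (0.63, adjusted p = 0.0445) and with arrays scaled to the same spread (1.03, adjusted p = 0.00487). Spic differed by 0.50 ± 0.27 in control mice (adjusted p = 0.303) and by 0.79 ± 0.25 in TNF-KO mice (adjusted p = 0.108), where it was called without CpG replicate 4 (0.96, adjusted p = 0.04). No member was called for a difference between the responses of the genotypes, when 0.0268% of all genes were. The largest such difference was that of Cd5l, at 1.22 ± 0.57 (adjusted p = 0.616, 95% interval 0.02 to 2.43). Cd5l differed after CpG by -0.09 ± 0.40 in TNF-KO spleen and by -1.31 ± 0.40 in control spleen. Adgre1 followed at 0.69 ± 0.28 (adjusted p = 0.547, 95% interval 0.11 to 1.27) on the probe used. The other Adgre1 probe gave -0.66 (adjusted p = 0.884). For Marco the difference was 0.53 ± 0.30 (adjusted p = 0.693, 95% interval -0.10 to 1.15). Mrc1 and Vcam1 in TNF-KO spleen differed by -0.67 ± 0.25 and -0.75 ± 0.26 after CpG (adjusted p = 0.193 and 0.144), and their responses differed from those of control mice by 0.62 ± 0.35 and 0.28 ± 0.36 (adjusted p = 0.693 and 0.893). No member was called between TNF-KO and control spleen without treatment (0.595% of all genes called) or after CpG (0.368%).

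**Figure D4:**
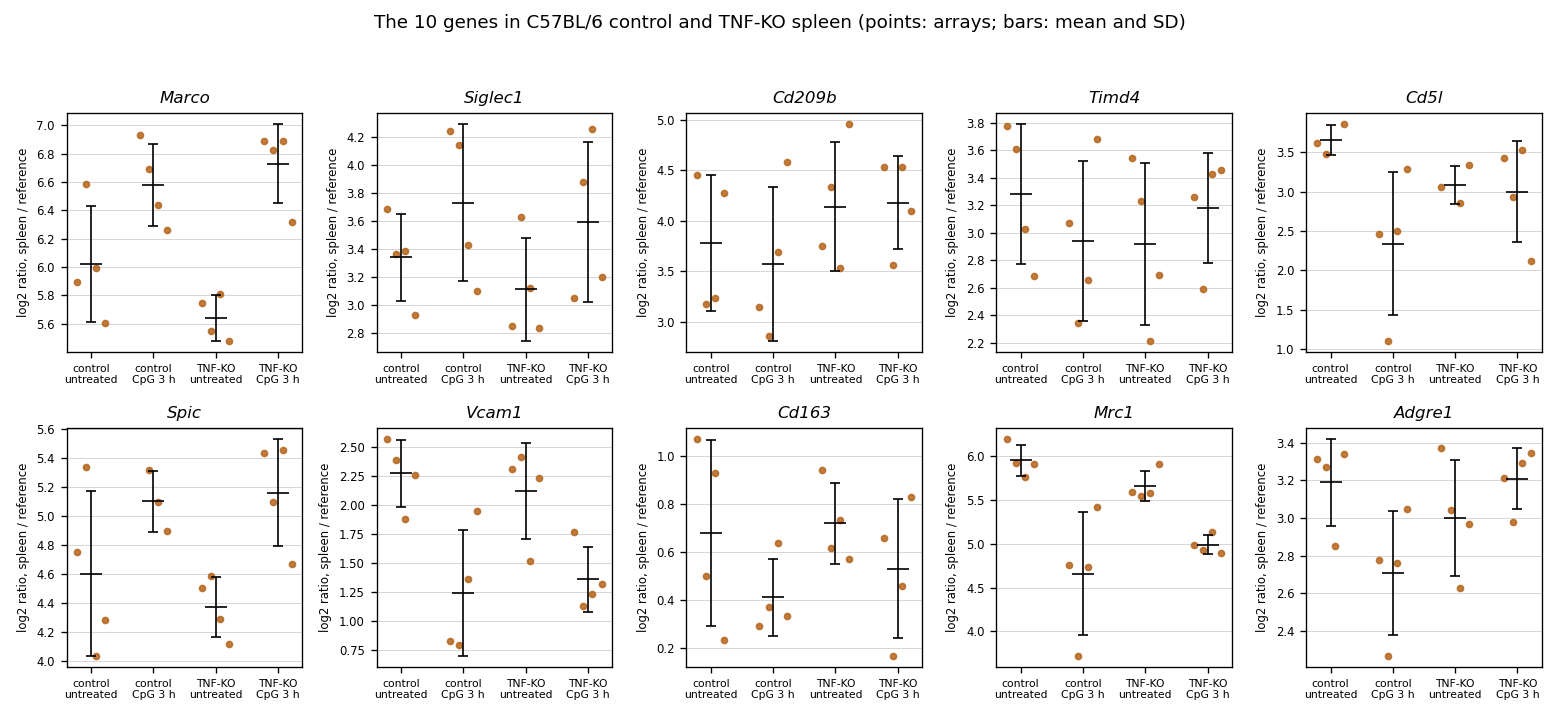
Log2 ratios of spleen over reference (y axis) of the 10 genes in untreated and CpG-treated C57BL/6 control and TNF-KO spleen (x axis); points are arrays, horizontal bars means and whiskers SD. Mrc1 after CpG lies below the untreated arrays in both genotypes, and Marco lies above them in TNF-KO spleen, at 6.32 to 6.89 against 5.48 to 5.81.

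Without treatment, 3 members were higher in C57BL/6 control than in BALB/c spleen, against 14.5% of 15237 genes called in either direction. Mrc1 was higher by 1.59 ± 0.33 (SE, adjusted p = 0.00071), Marco by 1.36 ± 0.38 (adjusted p = 0.0109) and Adgre1 by 0.75 ± 0.18 (adjusted p = 0.00258), each without overlap between the 4 and 6 arrays. Scaling the arrays to the same spread left differences of 0.82, 0.59 and 0.34 that did not pass (adjusted p = 0.121, 0.312 and 0.268). Under that scaling 2 other members were called lower in C57BL/6 spleen, Siglec1 (-1.18, adjusted p = 0.0041) and Vcam1 (-1.05, adjusted p = 0.0104). The calls thus turned from 3 higher to 2 lower. The share of 14.5% belongs to the unscaled fit and cannot be set beside the scaled calls. Unscaled, Siglec1 was lower by 0.65 without overlap (adjusted p = 0.151) and Vcam1 by 0.67 with overlap (adjusted p = 0.0784). Vcam1 was called at -0.77 without BALB/c untreated replicate 6 (adjusted p = 0.0489). Marco was not called without C57BL/6 untreated replicate 2 (1.17, adjusted p = 0.0552). The Adgre1 call rests on the probe used. With the mean of its probes the difference was 0 (adjusted p = 0.999), and the other probe gave -0.75 (adjusted p = 0.446). The array numbers of the strains fall into different runs, and strain and run cannot be told apart. Of 12 endothelial genes 7 were also higher in C57BL/6 spleen and none lower. Responses at 3 h differed between strains for no member, against 0.453% of all genes called. The largest such difference was that of Mrc1, at -1.48 ± 0.49 (adjusted p = 0.326), since Mrc1 differed from untreated spleen by 0.19 in BALB/c and by -1.29 in C57BL/6. Without the low untreated BALB/c replicates 5 and 6 the BALB/c value turned to -0.38, as it also was within the second run, and the difference between strains came to -0.91.

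Vcam1 and Adgre1 were each measured by a further probe. For Vcam1 the probes had a Pearson correlation of 0.82 over the 34 BALB/c arrays and of 0.62 over all 50, which share the reference and the centring. Its other probe read 1.35, 1.66, 1.79 and 3.75 at 9 h against 3.10 to 3.65 untreated, a difference of -1.21 (adjusted p = 0.00233). At the early times it gave 0.75 at 0.5 h (adjusted p = 0.494) and 0.53 at 1 h (adjusted p = 0.315). Its 1 h arrays, at 3.56 to 3.98, overlapped the untreated ones. On that probe the difference in C57BL/6 control spleen was -0.88 (adjusted p = 0.0502) and that between CpG and control ODN -0.59 (adjusted p = 0.161). In C57BL/6 spleen the probes differed: the other probe gave -0.11 for CpG in TNF-KO mice against -0.75, and 0.20 between the untreated strains against -0.67. Its lowest group was 9 h in BALB/c at 2.14, below CpG-treated C57BL/6 control (2.66) and TNF-KO spleen (3.26). For Adgre1 the probes did not run together, with a correlation of -0.27 over 33 BALB/c arrays. The other Adgre1 probe was scattered from -1.52 to 3.25 over all arrays, beside 1.97 to 3.58 for the probe used. It read 2.88, 0.29, 0.43 and 3.25 at 24 h, a difference from untreated of 0.12 (adjusted p = 0.929), and it gave -0.70 between 24 and 9 h and -0.75 between the strains. The Adgre1 calls thus rest on the probe with more values.

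**Figure D5:**
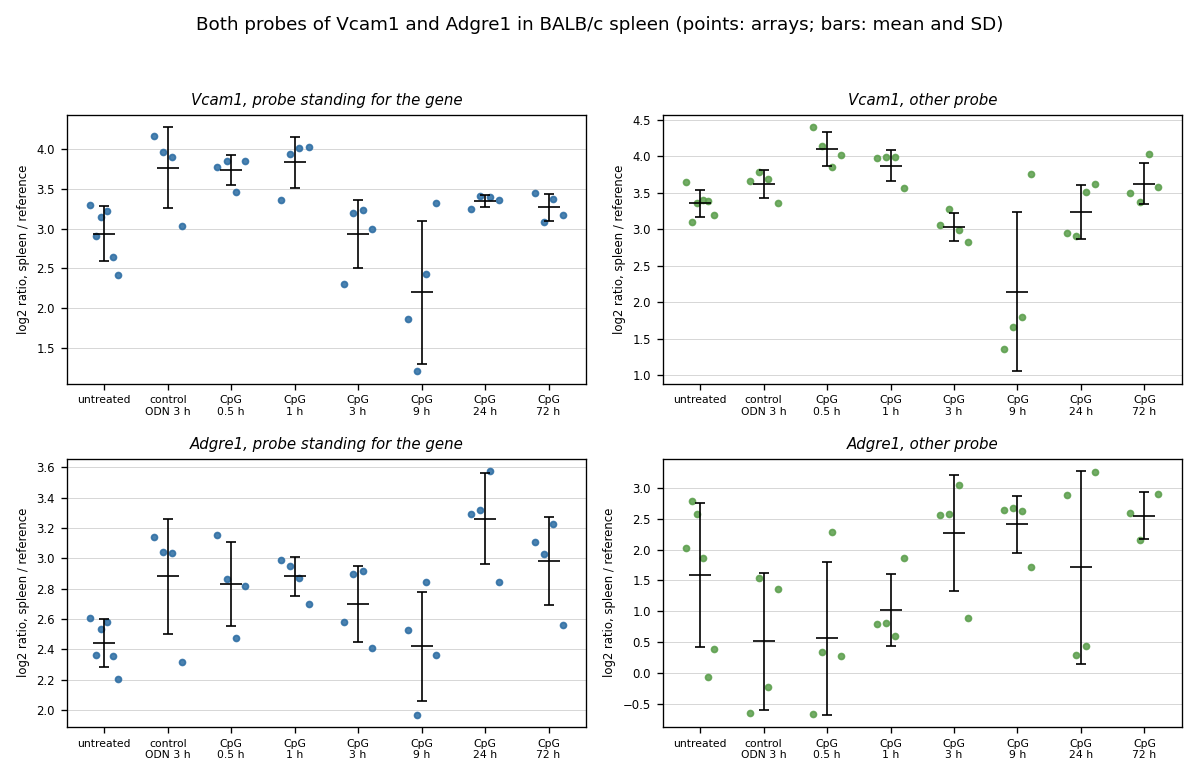
Log2 ratios of spleen over reference (y axis) of both probes of Vcam1 (top) and Adgre1 (bottom) in the 8 BALB/c groups (x axis); points are arrays, horizontal bars means and whiskers SD. Both Vcam1 probes are lowest at 9 h, with means of 2.20 and 2.14. The other Adgre1 probe has the larger SD in every group, with 1.57 against 0.30 at 24 h but 0.46 against 0.36 at 9 h.

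Further genes of these macrophages and of the pathways they use were set beside the members. Their counts are to be read against the shares of all genes called, which were 3.3% at 1 h, 9.96% at 3 h, 6.96% at 9 h, 8.45% at 24 h and 10.6% at 72 h. Of 12 other red pulp macrophage genes, none was higher and 2 were lower at 3 h. Against control ODN 6 were lower and none higher, when 18.3% of all genes were called. In that comparison 5 of 10 genes of the liver X receptors and their targets and 4 of 12 dendritic cell genes were also lower. Slc40a1, the iron exporter ferroportin, differed by -2.65 ± 0.22 at 3 h (SE, adjusted p = 4.8e-11) and -1.74 ± 0.22 at 9 h (adjusted p = 7e-07), and Slc48a1, a heme transporter, by -1.05 ± 0.23 at 3 h (adjusted p = 0.00155). Both were also lower at 3 h in C57BL/6 control spleen, by -2.77 ± 0.38 and -1.09 ± 0.28 (adjusted p = 0.00012 and 0.0228). At 24 h 3 of the 12 were higher and none lower: Treml4 (1.45 ± 0.28, adjusted p = 0.00078), C1qc (1.33 ± 0.24, adjusted p = 0.00037) and Cd68 (0.96 ± 0.23, adjusted p = 0.00555). Slc40a1 and Treml4 rose between 9 and 24 h, by 1.81 ± 0.24 and 2.00 ± 0.31 (adjusted p = 1.5e-05 and 0.00012).

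Of 10 measured genes of the liver X receptors and their targets, 1 was higher and none lower at 24 h, when Cd5l was high, and 1 was higher and 3 lower at 72 h. Nr1h3, which encodes liver X receptor alpha, was higher by 1.24 ± 0.30 at 9 h (SE, adjusted p = 0.00581), 1.31 ± 0.30 at 24 h (adjusted p = 0.00391) and 1.35 ± 0.30 at 72 h (adjusted p = 0.00352). Abca1, the cholesterol exporter, and Scd1 were lower at 72 h, by -0.98 ± 0.27 and -0.83 ± 0.20 (adjusted p = 0.0195 and 0.00823). At 3 h none of the 10 was higher and 3 were lower, among them Scd2 at -1.16 ± 0.18 (adjusted p = 2.1e-05). The list's median log2 difference was -0.04 at 24 h and 0.03 at 72 h.

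Of 11 other scavenger receptors 1 or 2 were higher at each time from 3 to 72 h and none lower. Msr1, a class A receptor like Marco, led them with 2.16 ± 0.23 at 3 h (SE, adjusted p = 9.3e-09) and 2.79 ± 0.23 at 24 h (adjusted p = 1.6e-10). Of 16 genes for the uptake of dying cells, 2 were lower and none higher at 3 h and again at 9 h, to be set against the 9.96% and 6.96% of all genes, Itgb5 (-1.46 ± 0.22 at 9 h, adjusted p = 1.3e-05) and Havcr2 (-1.26 ± 0.24, adjusted p = 0.00039). Itgb5, an integrin chain, rose by 1.95 ± 0.24 between 9 and 24 h (adjusted p = 4.3e-06), the interval in which Mrc1 rose. Among 15 lectins related to Cd209b, Mrc1 and Siglec1, 1 was higher and 1 lower at 3 h, and 2 were higher and 3 lower at 9 h, including Mrc2 at -0.73 ± 0.20 (adjusted p = 0.0161). Of 16 growth and lineage factors of macrophages 4 were higher and none lower at 1 h, with Cebpb at 1.65 ± 0.20 (adjusted p = 8.7e-07) and Csf1, the growth factor of macrophages, at 1.25 ± 0.26 (adjusted p = 0.00224). Of 16 genes that organise the marginal zone, 2 were higher at 1 h, Dll1 (1.56 ± 0.25, adjusted p = 0.0001) and Ccr7 (1.05 ± 0.29, adjusted p = 0.0305), and none was lower. Of 8 integrins and partners of Vcam1, Icam1 was the gene called at 1 h, at 2.50 ± 0.22 (adjusted p = 6.7e-10).

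Some markers of other cell types were called in the same groups. The shares of all genes called to set beside them were 3.3% at 1 h, 6.96% at 9 h, 8.45% at 24 h and 10.6% at 72 h. Of 13 monocyte genes 7 were higher and 1 lower at 9 h, and 5 higher and 1 lower at 24 h, and their mean over 10 genes was 0.45 to 0.99 on untreated arrays, 1.24 to 1.65 at 9 h and 1.09 to 1.58 at 24 h. Of 14 neutrophil genes 7 were higher and none lower at 1 h, with a mean over 11 genes of 1.74 to 2.70 untreated and 3.22 to 3.93 at 1 h. Of 7 genes of large peritoneal macrophages 1 was higher at 24 h and none lower. Of 9 erythroid genes 3 were lower and none higher at 24 h, and 2 were higher and none lower at 72 h, with means over 7 genes of 3.30 to 4.06 untreated, 2.39 to 3.40 at 24 h and 3.46 to 4.95 at 72 h. Of 12 genes of spleen mesenchyme none was higher and 2 were lower at 9 h, and of 8 T cell genes none was higher and 3 were lower. Dendritic cell genes gave 1 of 12 higher and 3 lower at 9 h, and none of 9 B cell genes was called then. The part of these cells in the members' values was not tested.

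Over the 34 BALB/c arrays, which share the reference and the centring, the members formed no single pattern. Pearson correlations between pairs ran from -0.53 for Siglec1 with Cd163 to 0.80 for Vcam1 with Mrc1, and Marco and Siglec1 gave 0.66. The genes whose pattern was most like that of Mrc1, over 33 arrays and 12869 genes, were Adgre4 (0.91), Tbxas1 (0.88) and Gdf10 (0.85). Those most like Vcam1 were Dock5 (0.89), Gsta3 (0.84) and Rnf103 (0.84), and those most like Cd5l were Cox5a (0.86), Gemin6 (0.82) and Lap3 (0.82). Spic was nearest to Mcemp1 (0.78), Marco to Stau1 (0.81), Siglec1 to Gpx3 (0.86), Cd209b to Rps26 (0.78), Timd4 to Ccl21b (0.88), Cd163 to Tsga10 (0.80) and Adgre1 to Dse (0.87). Over all 12 groups the order of means placed Mrc1 lowest at 9 h in BALB/c and highest at 1 h in BALB/c and in untreated C57BL/6 control spleen (5.97 and 5.95), Cd5l lowest at 3 h in BALB/c and in C57BL/6 control spleen (2.33 and 2.34), and Vcam1 lowest after CpG in C57BL/6 control and TNF-KO spleen (1.24 and 1.36, on the probe used). Neighbours in each of these 3 pairs differed by less than the SD of either group.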

How the data were processed

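The authors deposited 1 log2 ratio (spleen over reference) per probe and array. Per the labels' series text, the authors subtracted background, dropped spots with bad flags or with both signals under 100, and normalized each array by lowess; signal over background was not used here, and a shift common to most genes would be removed by lowess. The array's genome build was not given in the sources used here. Probes were named from the platform annotation, updated through RefSeq (GRCm38.p6): 26926 probes had 1 symbol, 203 several and 9478 none. The probe with most values stood for a gene, the first listed on ties.

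Arrays were centred on their median over probes present on more than 70% of the arrays of a fit. Group means were fitted with limma 3.58.1 (R 4.3.3): 34 BALB/c arrays, 16 C57BL/6 arrays, and all 50 for contrasts between strains, with Benjamini-Hochberg adjustment over all genes. The fits were checked on simulated data. Median residual SD was 0.299 in BALB/c and 0.305 in C57BL/6. No 2 arrays held identical values, and the series text speaks of 4 independent experiments per time point. P-values measure the spread between arrays, whose number limits the precision. Fits without a gene's missing arrays use the rest.

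Named genes are the 10 members, up to 4 genes with the smallest p per list and comparison, and the 3 most correlated genes per member. Members and lists were chosen with earlier results of these data known. Alternatives tried were centring, scaling, filters, probe choice, weights, blocks, fewer groups and left-out arrays.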

Additional observations from a re-analysis of the deposited data

Results flagged for a closer look

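Within groups of 4 to 6 arrays, a value was singled out when its gap to the nearest array, over the range of the group, exceeded Dixon's 95% critical value. This held for 16 of 138 groups of values tested, where chance gives about 1 in 20. Replicate 4 of 72 h was low in Spic (4.89) and Marco (3.40), and replicate 3 of 72 h was low in Cd163 (-0.20). Untreated BALB/c replicate 5 was low in Cd209b (0.97). At 1 h, replicate 3 was low in Cd5l (1.31), replicate 1 in Vcam1 (3.36) and replicate 4 in the other Vcam1 probe (3.56). Mrc1 was high on 3 h replicate 4 (4.86), on control ODN replicate 1 (5.81) and on untreated TNF-KO replicate 4 (5.91). Siglec1 was high on 9 h replicate 2 (5.25). Adgre1 was low on control ODN replicate 4 (2.31) and on untreated C57BL/6 control replicate 3 (2.85), and its other probe on 9 h replicate 4 (1.73) and untreated C57BL/6 control replicate 1 (-0.73). Marco was low on TNF-KO CpG replicate 4 (6.32).

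For Mrc1, every CpG array of 3 h lay above the untreated mean in BALB/c and below it in both C57BL/6 genotypes. The BALB/c direction rests on the low untreated replicates 5 and 6: without them the untreated mean was 4.93, 0 of the 4 arrays lay above it, and the difference was -0.38 in place of 0.19. The difference of responses was -1.48 for control against BALB/c mice, which did not pass limma's test (adjusted p = 0.326) and was -0.91 without those 2 arrays. For TNF-KO against BALB/c mice it was -0.86, and that difference was not tested.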

How the results depend on the processing

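Of 344 alternative counts of called members 300 stayed within 1.5 times the main count. That tally ignores which members were called and in which direction, and it includes comparisons where both counts were 0. The strain calls that turned direction under scaling thus count as staying. Array weights gave 1 called member at 0.5 h, 5 at 1 h, 2 at 3 h, 6 for control ODN, 2 for CpG against control ODN, 4 in C57BL/6 control spleen, 2 in TNF-KO spleen and 5 for the untreated strains. Scaling the arrays to the same spread gave 0 at 1 h and 2 at 3 h. Fitting only the groups compared gave 2 at 3 h, 5 at 24 h, 2 for 24 against 9 h and 5 for the strains. Keeping genes with a value on every array gave 1 at 9 h and 2 for 24 against 9 h, since it drops genes with missing values. Array run as a block gave 0 at 3, 9 and 24 h, and it could not be fitted for 72 h, control ODN, CpG against control ODN, 72 against 24 h or the untreated strains. Averaging the probes of a gene, or taking the other probe of Vcam1 and Adgre1, gave 0 for CpG against control ODN, and the other probe gave 1 in C57BL/6 control spleen and turned the Adgre1 differences of 24 against 9 h (-0.70) and of the strains (-0.75). That probe, and leaving out untreated replicates 5 and 6, were chosen after seeing the data; without those arrays 1 was called at 1 h, 4 at 9 h and 1 at 72 h. The replicate block gave 1 at 1 h, 5 at 9 h and 3 for CpG against control ODN. In no comparison did every same-numbered pair correlate above 0.1, so the numbers were not taken to pair the arrays. Unless noted above, the cause of a change was not tested.

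Leaving out each array in turn gave 0 to 0 called members at 0.5 h, 2 to 5 at 1 h, 1 to 1 at 3 h, 2 to 3 at 9 h, 3 to 4 at 24 h and 2 to 4 at 72 h. It gave 0 to 5 for control ODN, 0 to 2 for CpG against control ODN, 2 to 4 for 24 against 9 h and 0 to 0 for 72 against 24 h. It gave 1 to 3 in C57BL/6 control spleen, 1 to 2 in TNF-KO spleen, 2 to 4 for the strains, and 0 to 0 between genotypes and for both differences of responses.

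Counts over all genes, against which the members' counts are read, moved more. At 0.5 h 39 genes were called, and 21 to 92 over the alternatives. The counts were 503 (287 to 1251) at 1 h, 1520 (691 to 2656) at 3 h, 1062 (196 to 1899) at 9 h, 1290 (169 to 2194) at 24 h and 1616 (678 to 5995) at 72 h. They were 216 (0 to 2127) for control ODN, 2790 (1623 to 3948) for CpG against control ODN, 1058 (131 to 2091) for 24 against 9 h and 508 (202 to 1866) for 72 against 24 h. They were 1151 (766 to 1563) in C57BL/6 control and 564 (350 to 726) in TNF-KO spleen, 89 (2 to 379) between untreated genotypes, 55 (19 to 164) between CpG-treated ones and 2213 (1500 to 3005) between strains. The differences of responses gave 4 (1 to 8) between genotypes and 69 (45 to 119) between strains.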
